A study of Mus musculus with 2 samples.

Results

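The genes examined here are 44 genes of glycolysis and of the response to low oxygen. Their fixed list of symbols was chosen with earlier results of these data known. They were examined in membranes dissected from murine air pouches. Such a pouch forms when air is injected beneath the skin of the back, and the tissue that lines it resembles synovium. All animals were female Balb/C mice, 6 to 8 weeks old, and carried no engineered allele by the labels. Control pouches received 1 ml PBS, whereas MSU pouches received 2 mg monosodium urate (MSU) crystals in 1 ml PBS, with dissection 9 h after injection in either case. RNA from 3 mice per condition was pooled and hybridized to 1 oligonucleotide array, so that 6 mice gave 2 arrays.

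Of the 44 genes, 41 had at least 1 probe set (a set of oligonucleotides that read out one transcript) assigned to that gene alone, with 93 probe sets in all among the 45101 on each array. Gpi1, Eno1 and Bnip3l had none and are not analysed here. Gapdh was measured through 3 control probe sets placed along its transcript. With 1 array per condition the conditions could not be tested against each other, and every value is a description of 2 RNA pools. A ratio is called a fold where the signal reached the detection floor on both arrays (64.6 for control, 74.1 for MSU), and is given as "at least" where it did so on 1 array and the other was replaced by its floor. Genes with either are called measured. A gene is represented by its brightest probe set, and values of its other probe sets are the one view of measurement error that 2 arrays offer. Over all genes, 4002 had 2 or more such probe sets, and their log2 ratios differed within a gene with a median SD of 0.22. Signals are given for the control pool first and the MSU pool second.

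Glycolysis splits glucose into pyruvate and yields ATP without oxygen, and pyruvate can then be reduced to lactate and exported. Hypoxia-inducible factors (HIFs) pair an oxygen-labile alpha subunit with the stable partner Arnt. In the presence of oxygen, prolyl hydroxylases mark the alpha subunit for the ubiquitin ligase subunit Vhl, and when oxygen falls, or when inflammatory signals raise Hif1a transcription in myeloid cells, the dimer drives genes of glucose uptake, glycolysis and angiogenesis. Activated macrophages and neutrophils are known to depend strongly on glycolysis.

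HIF dimers bind the core sequences ACGTG and GCGTG, and the promoters of the genes with the highest ratios are shown for this reason. The sequences are the 250 bases before the gene start in RefSeq's mouse build GRCm38.p6, 5′ to 3′, with each match to a core on either strand in capitals. All 4 lie on the plus strand.
Slc2a1, chr4:119108495-119108744: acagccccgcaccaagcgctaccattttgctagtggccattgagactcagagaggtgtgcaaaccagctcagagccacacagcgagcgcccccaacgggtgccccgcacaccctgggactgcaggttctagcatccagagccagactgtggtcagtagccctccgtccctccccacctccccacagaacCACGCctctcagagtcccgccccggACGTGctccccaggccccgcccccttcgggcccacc
Adm, chr7:110627407-110627656: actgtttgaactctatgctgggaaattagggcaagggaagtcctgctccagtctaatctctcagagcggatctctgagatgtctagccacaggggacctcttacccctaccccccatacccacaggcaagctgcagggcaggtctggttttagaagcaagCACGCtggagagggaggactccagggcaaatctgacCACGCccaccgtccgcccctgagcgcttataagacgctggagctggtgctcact
Slc16a1, chr3:104638414-104638663: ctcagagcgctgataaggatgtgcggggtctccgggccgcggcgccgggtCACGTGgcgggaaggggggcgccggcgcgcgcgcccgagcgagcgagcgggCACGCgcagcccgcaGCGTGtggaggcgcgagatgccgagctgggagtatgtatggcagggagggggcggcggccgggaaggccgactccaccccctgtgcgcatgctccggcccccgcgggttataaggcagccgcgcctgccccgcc
Slc16a3, chr11:120948817-120949066: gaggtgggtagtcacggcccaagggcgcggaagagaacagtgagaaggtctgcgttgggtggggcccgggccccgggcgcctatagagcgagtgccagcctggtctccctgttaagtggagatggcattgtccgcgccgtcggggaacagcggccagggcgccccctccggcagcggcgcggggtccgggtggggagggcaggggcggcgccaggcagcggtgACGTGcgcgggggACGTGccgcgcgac

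In the Slc16a3 promoter, 2 copies of ACGTG began 27 and 14 bases before the start. The Slc2a1 promoter held ACGTG 36 bases before the start and GCGTG, on the other strand, beginning 61 bases before it. The Adm promoter held 2 matches to GCGTG and none to ACGTG, and the first 2 of the 4 matches in the Slc16a1 promoter overlap in the palindrome CACGTG, which other bHLH factors such as Myc also bind. RefSeq's table lists 54 promoters for 39 of the 44 genes and none for Slc2a3, Epas1, Ndrg1, Plod2 and Bnip3l. A core of either kind was present in 43 of the 54 (79.6%), against 54.7% of 11568 promoters of all measured genes and 38.6% of all 32851 promoters. For ACGTG alone the shares were 44.4%, 21.5% and 16.6%, and for GCGTG alone 55.6%, 43.4% and 28.2%. Genes known as HIF targets were chosen for the list, so these shares are not a result of the 2 pools. GC bases made up a median of 61.0% of the promoters of the listed genes and 59.6% of those of all measured genes. A match describes letters in this window and not binding.

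The 44 genes were on balance higher in the MSU pool. Because the list was chosen with earlier results of these data known, the shares below describe it and are not a test of enrichment. Of the 40 measured, 13 were at least 2-fold higher (32.5%), against 3.70% of all 11156 measured genes, and 1 was at least 2-fold lower (2.5%), against 4.28%. The 13 were Slc2a1, Slc2a3, Slc16a1, Slc16a3, Hk3, Pfkp, Pfkfb3, Pgam1, Hif1a, Epas1, Egln3, Car12 and Adm, and the lower one was Ldhb. A fold above 1 was found for 35 of the 39 with a fold, against 45.0% of all 10046 genes with a fold. The median log2 ratio of these 39 was 0.59, and that of all genes -0.05.

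The deposited values had been scaled to a common trimmed mean. Hybridization spike-ins are labelled RNAs added to each hybridization, and 18 probe sets read them. Scaling on these probe sets would lower every log2 ratio by 0.46, so that the median of all genes became -0.51. The median of the 39 genes then became 0.13. Its distance of 0.64 from the median of all genes cannot change, because 1 factor shifts every log2 ratio alike. With this scaling 8 of the 40 measured genes passed 2-fold upward, against 1.77% of all measured genes, and 2 passed it downward, against 15.8%. A fold above 1 was then found for 24 of 39. In whole membranes, fewer cells of a type and less RNA per cell cannot be told apart in these ratios.

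**Figure D1:**
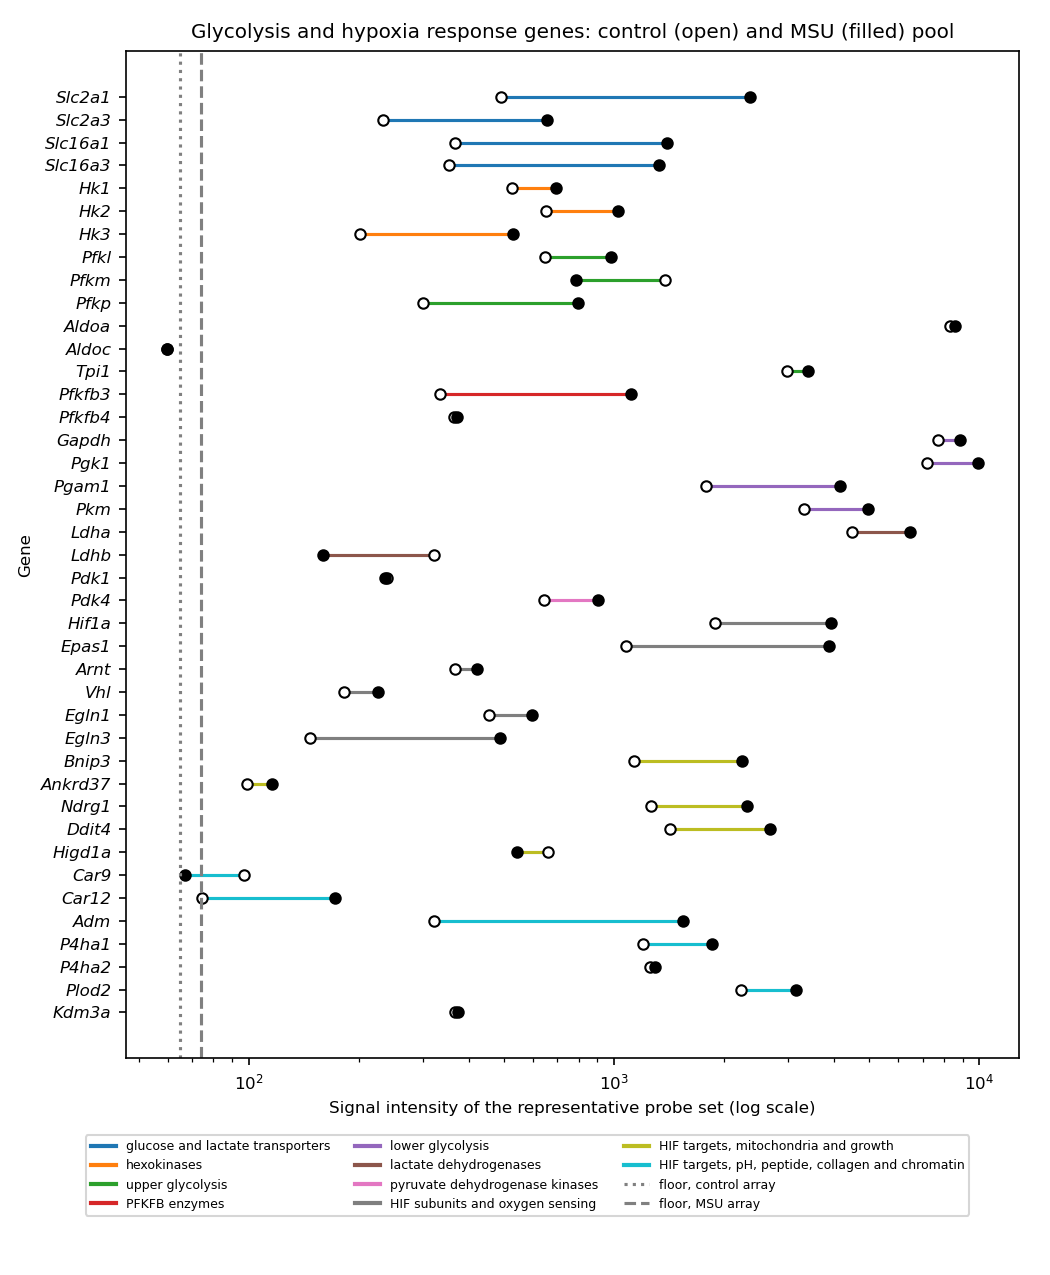
Signal intensity of the representative probe set of 41 genes (y axis) on a log x axis, with open points for the control pool, filled points for the MSU pool, 1 array each, and line colours for the role of the gene. The filled point lies to the right for the 4 transporters, Pfkfb3, Epas1, Egln3 and Adm by more than 2-fold, and to the left for, among others, Pfkm, Ldhb, Higd1a and Car9.

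The transporters that bring glucose into the cell and carry lactate across its membrane had the highest ratios as a group, and all 4 were at least 2-fold higher. Slc2a1 (GLUT1), the glucose transporter of most proliferating and activated cells, gave signals of 489 and 2357 (4.82-fold higher). Its 3 probe sets gave log2 ratios from 2.16 to 2.42. The lactate carrier Slc16a1 (MCT1) gave signals of 367 and 1399 (3.81-fold higher). Slc16a3 (MCT4), which exports lactate from strongly glycolytic cells, gave signals of 353 and 1325 (3.76-fold higher). The ratios of both carriers rest on 1 probe set above the floor each.

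Slc2a3 (GLUT3), the high-affinity glucose transporter of neurons and leukocytes, had 4 probe sets that differed widely in brightness. The brightest gave signals of 233 and 655, which is 2.81-fold higher, and the next 105 and 268, or 2.55-fold higher. The dimmest had a plain ratio of 48.0, but its control signal of 1.55 lay far below the floor and its MSU signal of 74.3 just above it, so that the bound was at least 1.15-fold. The 2 brighter probe sets are of the kinds (_s_at and _x_at) that can also detect related sequences, and without such probe sets Slc2a3 had no fold.

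The hexokinases trap glucose in the cell as glucose 6-phosphate. Hk3, an isoform found mainly in myeloid cells, gave signals of 201 and 530 (2.64-fold higher), and its other probe set was at 2.54-fold. Hk2, the inducible isoform of muscle and fat, gave signals of 651 and 1028 (1.58-fold higher). Hk1, the widely expressed isoform, was 1.32-fold higher on its representative probe set, which turns to a log2 ratio of -0.06 under scaling on the spike-ins. Its other probe set was 1.64-fold higher, a log2 ratio of 0.72, and stays above 0 after the shift of 0.46. Among the 3, only Hk3 passed 2-fold, and with that scaling it had 1.92-fold.

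Phosphofructokinase commits sugar to glycolysis, and the ratios of its subunit genes differed. Pfkp, the platelet form, gave signals of 300 and 798 (2.66-fold higher), with log2 ratios of 1.30 to 1.41 on its 3 probe sets. Pfkl, the liver form also found in leukocytes, was 1.51-fold higher at signals of 648 and 980, and its other probe sets gave 2.14- and 1.24-fold. Pfkm, the form of skeletal muscle, gave signals of 1380 and 786 (1.76-fold lower). The muscle and platelet forms thus lay on opposite sides of 1 under each scaling run. Pfkp fell short of 2-fold, at 1.94-fold, under scaling on the spike-ins.

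Pfkfb3 makes fructose 2,6-bisphosphate, the strongest activator of phosphofructokinase. It gave signals of 333 and 1112 (3.34-fold higher), and its dimmer probe set was at least 2.65-fold higher. Pfkfb4, an isoform of the same enzyme family, gave signals of 365 and 371 (ratio 1.02).

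The middle enzymes of the pathway differed least between the pools. Aldolase A (Aldoa), which cleaves the 6-carbon sugar, gave signals of 8333 and 8588 (ratio 1.03), and its ratio was below 1 under each other scaling. The log2 ratios of its 5 probe sets ran from -0.40 to 0.50. Triosephosphate isomerase (Tpi1) was at 1.14-fold on 3 probe sets with log2 ratios of 0.07 to 0.19. Aldolase C (Aldoc), with signals of 59.7 and 59.5, was below the floor on both arrays. Gapdh, which oxidizes the triose and often serves as a reference gene, gave signals of 7688 and 8835 at its 5′ end and ratios of 1.11 to 1.15 on its 3 probe sets. Under scaling on the spike-ins the log2 ratios of Tpi1 and Gapdh became -0.26 and -0.26.

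The later enzymes yield ATP and pyruvate. Phosphoglycerate mutase 1 (Pgam1) gave signals of 1789 and 4161 (2.33-fold higher) on its single probe set, or 1.70-fold under scaling on the spike-ins. Phosphoglycerate kinase (Pgk1) gave signals of 7198 and 9916 (1.38-fold higher), with 1.68- and 1.63-fold on its dimmer probe sets. Pyruvate kinase (Pkm) gave signals of 3303 and 4966 (1.504-fold higher). Of the 4 measured genes from Gapdh to Pkm, Pgam1 alone passed 2-fold as deposited.

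The lactate dehydrogenase subunits had ratios on opposite sides of 1. Ldha, the subunit that favours lactate production, gave signals of 4496 and 6452 (1.44-fold higher). Ldhb, the subunit typical of oxidative tissue such as heart, gave signals of 321 and 159 (2.02-fold lower). Its other probe sets were 1.92-fold lower, at least 2.45-fold lower and at least 2.08-fold lower, so that all 4 lay on the same side. Quantile normalization, adding the floors as a pseudocount and taking the median over its probe sets each put Ldhb under 2-fold.

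Pyruvate dehydrogenase kinases keep pyruvate out of the mitochondrial cycle. Pdk4, the isoform of fasting muscle and fat, gave signals of 642 and 901 (1.40-fold higher). Pdk1, the isoform induced by HIF, gave signals of 239 and 236 on its brightest probe set, a ratio of 0.985. Its next 2 probe sets had 133 and 207 (1.56-fold higher) and 119 and 293 (2.46-fold higher). Pdk1 was the one gene of the 22 with 2 or more folds whose log2 ratios spanned more than 1, so its ratio depends on the probe set.

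**Figure D2:**
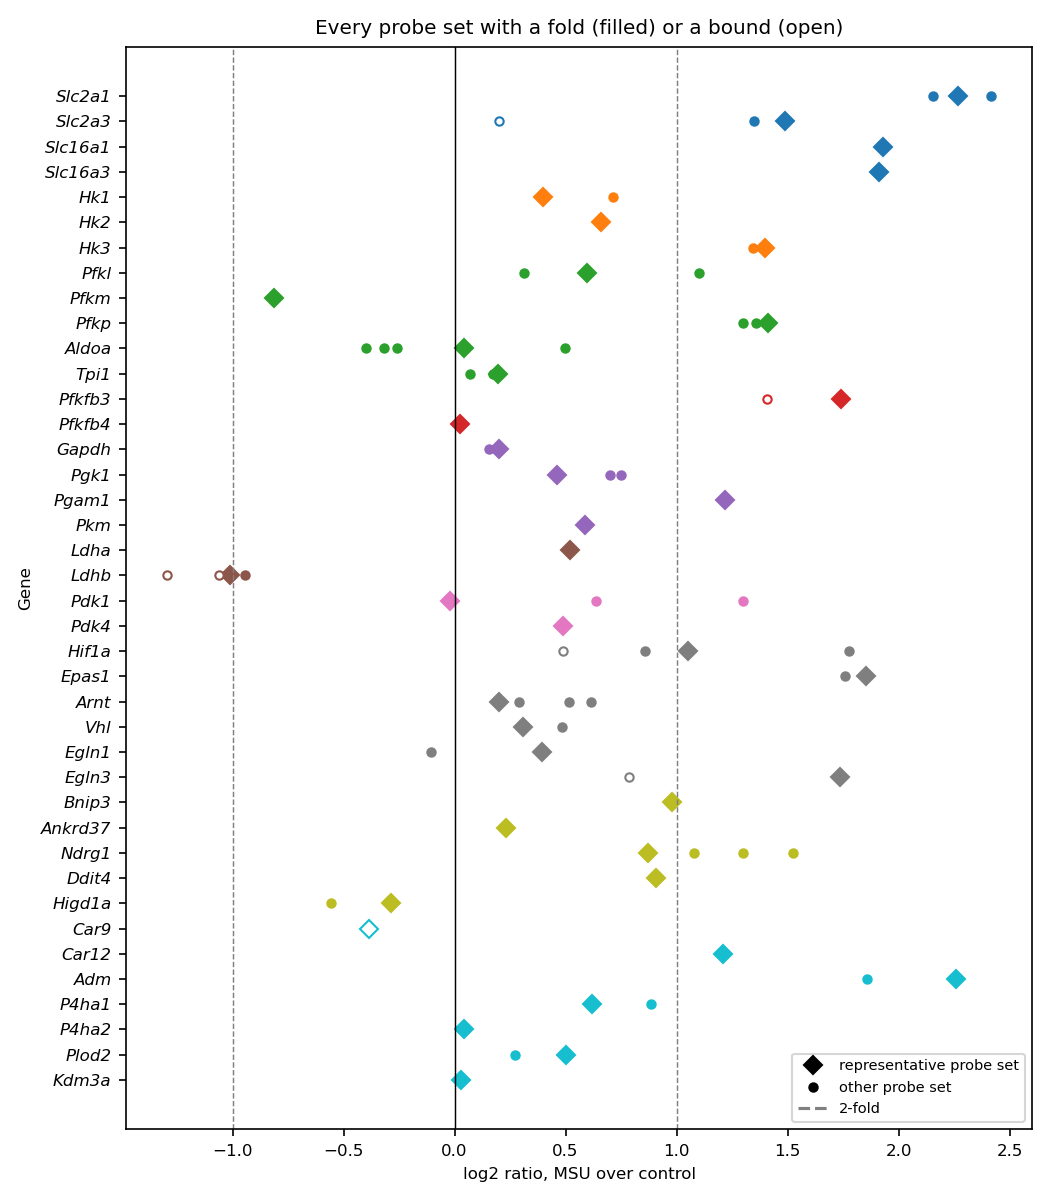
Log2 ratio of MSU over control (x axis) for every probe set with a fold (filled) or a bound (open) of 40 genes (y axis, coloured by role), with diamonds for the representative probe set and dashed lines at 2-fold. The probe sets of Slc2a1, Pfkp, Epas1 and Adm cluster to the right of 2-fold, whereas those of Pdk1 spread from -0.02 to 1.30 and those of Aldoa lie on both sides of 0 (from -0.40 to 0.50).

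The genes of the HIF system itself were higher for the alpha subunits and for Egln3, while the remaining parts differed little. Epas1 (HIF-2 alpha), which is abundant in endothelium and macrophages, gave signals of 1078 and 3889 (3.61-fold higher), and its second probe set was at 3.38-fold. Hif1a gave signals of 1893 and 3928 (2.08-fold higher). Its other probe sets gave 1.81-fold, 3.42-fold and at least 1.40-fold, and Hif1a fell under 2-fold with equal array medians, quantile normalization and scaling on the spike-ins. The brightest probe set of Hif1a lay just inside the 2-fold limit, as Bnip3, at 1.97-fold, lay just outside it.

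Arnt, the common partner, gave signals of 368 and 422 and a ratio of 1.15. Vhl, which targets hydroxylated alpha subunits for degradation, gave signals of 182 and 226 (ratio 1.24). Egln1 (PHD2), the main oxygen sensor, gave signals of 454 and 597 (1.32-fold higher) on its representative probe set and of 518 and 482 (a log2 ratio of -0.11) on the other. The log2 ratios of the representative probe sets of Arnt, Vhl and Egln1 were all below 0 under scaling on the spike-ins. As deposited, log2 ratios reached 0.61 on another probe set of Arnt and 0.48 on the other of Vhl. Both exceed the shift of 0.46, so for these 2 genes the sign depends on the probe set. In contrast, Egln3 (PHD3), a hydroxylase that HIF induces, gave signals of 147 and 488 (3.33-fold higher), with a second probe set at least 1.72-fold higher.

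Of the 13 other genes on the list that HIF is known to induce, 12 were measured. Of these, 2 passed 2-fold upward (16.7%), against 3.70% of all measured genes, and none downward, against 4.28%. Adrenomedullin (Adm), a vasodilator peptide also induced by cytokines, gave signals of 322 and 1541 (4.78-fold higher). Its second probe set was at 3.62-fold. Car12, a membrane carbonic anhydrase that exports acid, gave signals of 74.2 and 172 (2.31-fold higher). The control signal of Car12 lay near the floor, its other 2 probe sets were below both floors, and it was not past 2-fold with the higher floor, with the floors as a pseudocount or under scaling on the spike-ins. Its relative Car9, a classical marker of hypoxic tissue, gave signals of 96.9 and 66.9 (at least 1.31-fold lower).

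Of the 5 measured HIF targets that act on mitochondria and growth none passed 2-fold. Of all measured genes, 3.70% passed it upward and 4.28% downward. Bnip3, Ddit4 and Ndrg1 lay just below 2-fold higher. Bnip3, a receptor for mitophagy, gave signals of 1132 and 2234. Ddit4 (REDD1), an inhibitor of the growth kinase complex mTORC1, gave signals of 1427 and 2679 (1.88-fold higher). Ndrg1, a stress-induced gene, gave signals of 1263 and 2311 (1.83-fold higher). The 5 probe sets of Ndrg1 gave log2 ratios of 0.86 to 1.52, and their median lay past 2-fold. Higd1a, a small protein of the respiratory chain, gave signals of 661 and 541 (1.22-fold lower). Ankrd37, a HIF target of less known function, gave signals of 98.6 and 116 (ratio 1.17).

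The collagen-modifying enzymes of the list lay within 2-fold. P4ha1, a catalytic subunit of collagen prolyl 4-hydroxylase, gave signals of 1203 and 1849 (1.54-fold higher), and its other probe set was at 1.84-fold. Its paralogue P4ha2 gave signals of 1256 and 1293 (ratio 1.03). The lysyl hydroxylase Plod2 gave signals of 2231 and 3156 (1.41-fold higher). Kdm3a, a histone demethylase, gave signals of 366 and 373 (ratio 1.02). For Kdm3a, P4ha2, Pfkfb4 and Aldoa the log2 ratio was below 0 both with equal array medians and with spike-in scaling.

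Some steps of the pathway are catalysed by several isoforms, and the ratios of these lay on opposite sides of 1 for 8 of 13 steps or families, counting isoforms outside the list of 44 that were on a list of further pathway genes. As 45.0% of all genes with a fold lay above 1, unrelated genes can also lie on both sides, and nothing particular to isoforms is read from this count. The mutase Pgam2, the muscle isoform, gave signals of 711 and 120 (5.90-fold lower), whereas Pgam1 was higher. The muscle enolase Eno3 gave signals of 2975 and 1304 (2.28-fold lower), whereas the neuronal form Eno2 was 1.87-fold higher at signals of 171 and 320. Slc2a4 (GLUT4), the insulin-regulated transporter of muscle and fat, gave signals of 263 and 127 (2.08-fold lower), in contrast to Slc2a1 and Slc2a3. Slc2a6, a transporter of the same family found in leukocytes, was at least 2.73-fold higher. Pdk2, another of the kinases, was 2.09-fold lower.

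**Figure D3:**
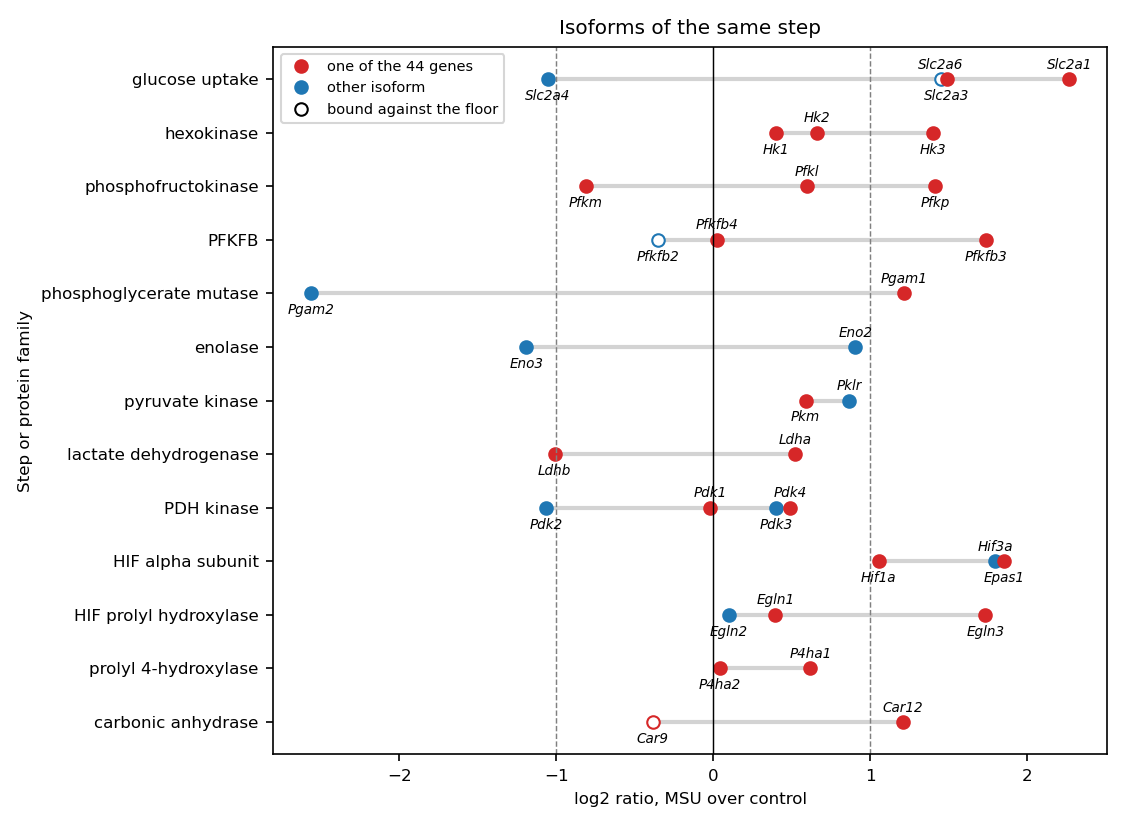
Log2 ratio of MSU over control (x axis) for the measured isoforms of 13 steps or protein families (y axis), red for the genes of the list and blue for other isoforms, open where the value is a bound, with dashed lines at 2-fold. Pgam1 and Pgam2 lie farthest apart, at 1.22 and -2.56, and the 3 HIF alpha subunits all lie right of 1, although Hif1a does not under other scalings.

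Markers of skeletal muscle and fat were lower on balance in the MSU pool, and those of neutrophils were higher on balance. Of 10 skeletal muscle markers measured, 4 passed 2-fold downward (40%) and none upward, against 4.28% and 3.70% of all measured genes. Acta1 and Ttn were slightly higher, at 1.15- and 1.08-fold. The summed signal of the 10 went from 38669 (control) to 25586 (MSU). All 5 adipocyte markers with a probe set were lower, 4 of them by at least 2-fold (80%, against 4.28%), with summed signals of 9040 and 2112. Of 7 neutrophil markers measured, 6 passed 2-fold upward (85.7%, against 3.70%). The remaining one, Ltf, gave signals of 234 and 161 (1.45-fold lower). Summed signals were 2256 and 20339 over 8 markers, of which Camp lay below both floors. Most of the MSU sum came from S100a8 and S100a9, with MSU signals of 8677 and 8737. The summed signal of 8 macrophage markers was 28168 and 29259, that of 7 fibroblast markers 49389 and 57629, and that of 5 endothelial markers 962 and 914. None of the 20 markers of these last 3 cell types was 2-fold higher or lower, against 3.70% and 4.28% of all measured genes. The part of these tissues and cells in the ratios of the glycolysis and hypoxia genes was not tested.

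Further genes known as HIF targets, on a list of 41 symbols, were higher more often than all genes. This list was chosen with earlier results of these data known, so its shares describe it and are not a test of enrichment. Of 37 measured, 9 passed 2-fold upward (24.3%), against 3.70% of all measured genes, and 1 downward (2.7%), against 4.28%. The median log2 ratio of the 34 with a fold was 0.42. Vegfa, the main angiogenic factor, gave signals of 289 and 987 (3.41-fold higher). Plaur, the urokinase receptor, gave signals of 562 and 2691 (4.79-fold higher). Ero1a, an oxidase for disulfide bonds in the endoplasmic reticulum, gave signals of 394 and 1080 (2.74-fold higher). The adenylate kinase Ak4 was 2.60-fold higher at signals of 235 and 610. The largest value on this list was that of Nos2, with signals of 17.3, below the floor, and 424 (at least 6.56-fold higher). Id2 (2.68-fold), Mt1 (2.33-fold), Bhlhe40 (2.08-fold) and Angptl4 (2.05-fold) also passed 2-fold upward. The gene at least 2-fold lower was Tgfb3, with signals of 275 and 93.5. Many of these genes are also induced by inflammatory signals.

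Among 13 further genes of the HIF pathway, 11 were measured and 1 was at least 2-fold higher (9.09%, against 3.70% of all measured genes). This was Hif3a, whose products can restrain the other HIF subunits, with signals of 208 and 724, which is 3.48-fold higher. Hif1an, the asparaginyl hydroxylase of HIF, gave signals of 255 and 216, and the prolyl hydroxylase Egln2 had 435 and 466. The median log2 ratio of the 11 was 0.10.

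On the mitochondrial side, the genes of the pyruvate dehydrogenase complex, its kinases and phosphatases and pyruvate entry were lower on balance. Of 10 measured, 2 passed 2-fold downward (20%), against 4.28% of all measured genes, and none upward, against 3.70%. The median log2 ratio was -0.37. Mpc1, a subunit of the mitochondrial pyruvate carrier, gave signals of 728 and 225 (3.24-fold lower). The other was Pdk2, which is 1 of the kinases that keep pyruvate out, so the count is not a reading of pyruvate entry. The catalytic subunits Pdha1 and Pdhb had log2 ratios of -0.32 and -0.59.

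**Figure D4:**
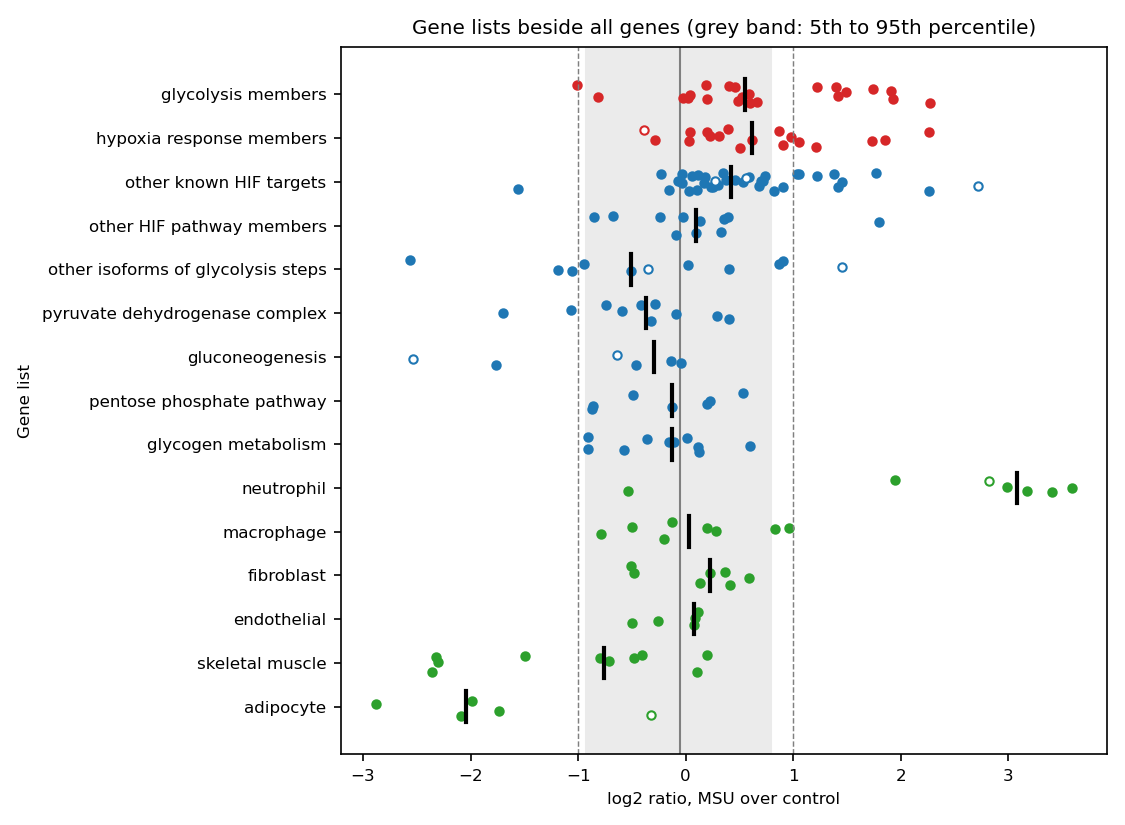
Log2 ratio of MSU over control (x axis) of the measured genes of 15 lists (y axis), red for the 44 genes, blue for other pathway lists and green for markers, with open points for bounds, black bars for medians over folds, dashed lines at 2-fold, and a grey band from the 5th to the 95th percentile of all genes with a fold. The medians of the glycolysis (0.55) and hypoxia response genes (0.62) lie right of that of all genes (-0.05). Scaling on the spike-ins shifts all values left by the same 0.46, so it cannot change these distances.

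The 13 genes at least 2-fold higher were also compared between their own probe sets. Of these, 7 had 2 or more probe sets with a fold, and for 6 of the 7 every such probe set was at least 2-fold higher, the exception being Hif1a. The other 6 were represented by a single probe set with a fold. Among all 22 genes of the list with 2 or more folds, the SD between the log2 ratios of a gene had a median of 0.17 and a maximum of 0.66, and 3 (Aldoa, Pdk1 and Egln1) had probe sets on both sides of 1. This spread holds no variation between mice, pools or arrays.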

How the data were processed

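Total RNA from 3 pooled membranes per condition was hybridized to Affymetrix Mo430_2 arrays. The authors deposited 1 linear signal intensity for each probe set and array. It came from Affymetrix GCOS (the submitters' notes name MAS5, its version was not given in the sources used here) and had been scaled by 1 factor per array, so that the trimmed mean without the highest and lowest 2% was 149.96 on both. The values were not changed further.

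Probe sets were named through the platform annotation, with symbols updated through gene identifiers in RefSeq's table for GRCm38.p6. Probe sets with 1 gene numbered 34958, and those with several were not used. Affymetrix control probe sets were used only for Gapdh, which had no other of its own. The floor of each array was set so that as many probe sets lay above it as the paper counted as detected. The brightest probe set by mean log2 signal stood for each of 18194 genes. Ratios are MSU over control. The number of arrays limits the precision, and no p-value was computed.

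The 44 genes and the lists were chosen with earlier results of these data known. All 41 listed genes with a probe set are named, and by rule signals of both pools are given for those at least 1.5-fold higher or lower, those whose probe sets differ by over 1 on the log2 scale and the 4 with the smallest ratios. Signals of other listed genes, and genes of other lists that were within 2-fold, were added with their values already seen. The alternatives were other scalings (equal medians, quantile normalization, spike-ins), other floors (none, the 15000th highest signal, the floor as a pseudocount), the median over probe sets, no _x_at or _s_at probe sets, and sizes of 3-fold and 1.5-fold. The gene step was tested on simulated data. Computations used Python 3.11.15, numpy 2.4.6 and pandas 2.3.3.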

Additional observations from a re-analysis of the deposited data

How the results depend on the processing

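The count of 13 genes at least 2-fold higher was 12 to 14 under equal array medians, quantile normalization, each other floor, the median over probe sets and without _x_at or _s_at probe sets. It was 8 under scaling on the spike-ins, 7 at a size of 3-fold and 20 at 1.5-fold, where 1.77%, 1.47% and 8.65% of all measured genes were higher. Under scaling on the spike-ins the 5 genes no longer past 2-fold were Car12, Hif1a, Hk3, Pfkp and Pgam1. The count of 1 gene lower was 0 under quantile normalization, with the floors as a pseudocount, with the median over probe sets and at 3-fold, and 2 (Ldhb and Pfkm) under scaling on the spike-ins and at 1.5-fold. Of all measured genes 4.17%, 1.19%, 3.90% and 0.717% were lower in the first 4 of these, and 15.8% and 14.4% in the last 2, so the share of the listed genes was below that of all genes in each. The median log2 ratio was 0.51 to 0.64 under the other alternatives and 0.13 under scaling on the spike-ins. No gene past 2-fold changed direction in any alternative. Under scaling on the spike-ins 11 of 40 ratios, all within 2-fold, changed sign. No paired analysis was possible because each condition had 1 array. Signals near the floor limit Car9, Car12 and Ankrd37.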

Other observations

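Genes of branches off glycolysis lay near or below the median of all genes. Of 7 genes of the pentose phosphate pathway measured, none was 2-fold higher or lower, and the median log2 ratio was -0.12. Of all measured genes, 3.70% were higher and 4.28% lower, so a list this short can hold none without differing from all genes. Taldo1 and Pgls, of its later and earlier part, had log2 ratios of -0.86 and -0.87. Of 10 glycogen genes measured, none was 2-fold higher or lower, and the same holds for a list of this length. The muscle phosphorylase Pygm had signals of 984 and 526 and the liver form Pygl 668 and 1014. Of 6 gluconeogenesis genes measured, 2 were at least 2-fold lower (33.3%), against 4.28% of all measured genes. Pyruvate carboxylase (Pcx), abundant in fat, had signals of 513 and 151 and was 3.39-fold lower. The other was Pck1, at least 5.79-fold lower. The adipocyte and muscle markers were lower on balance in the same pool, and their part in these values was not tested.

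Of 13 measured genes listed as upstream of Hif1a in myeloid cells, 3 were at least 2-fold higher (23.1%), against 3.70% of all measured genes. They were Acod1, Il1b and Tlr4. Acod1 (Irg1) was among the most upregulated mRNAs that the paper took from these arrays, so its place in the count was known beforehand. The direction of Il1b was known too, as the paper's qPCR found its mRNA higher 9 h after MSU than after PBS. Stat3, a transcription factor downstream of interleukin-6, had signals of 1248 and 2451 and a ratio of 1.96. The kinase gene Mtor had 236 and 234, a ratio of 0.990. None of the 13 was 2-fold lower, against 4.28% of all measured genes.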
